A study of Homo sapiens with 6 samples.

Results

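The genes described here are the D and E cyclins, the D cyclin partner kinase CDK6 and the CDK inhibitors CDKN1B, CDKN1C, CDKN2C and CDKN2D. They were taken by gene symbol from the deposited count tables, and all 10 of 10 listed symbols were found among 56832 rows. All 10 also passed the filter on low counts that left 17415 genes for testing. The cells were HEK293T, a human embryonic kidney line, in which GLO1 had been knocked out in every library of both groups. GLO1 encodes glyoxalase 1, which clears methylglyoxal (MGO), a reactive by-product of sugar breakdown. The untreated group held 3 libraries (replicates 1, 2 and 4, with 0 mM MGO added), and the MGO group held 3 libraries (replicates 1, 3 and 4) of cells given 0.2 mM MGO in the medium overnight. By its title the series asks how glycation of histone H3 and the promoter mark H3K4me3 oppose each other. A parental GLO1 wild-type line is not analysed here, and the labels name neither the number of knockout clones nor separate cultures, so the p-values cover variation among these libraries that could be technical alone.

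Cells pass from G1 into S phase when CDK4 or CDK6, bound to a D cyclin, and then CDK2, bound to an E cyclin, phosphorylate the RB protein and release E2F transcription factors. INK4 inhibitors (here CDKN2C and CDKN2D) bind CDK4 and CDK6, whereas Cip/Kip inhibitors (here CDKN1B and CDKN1C) bind cyclin-CDK complexes, chiefly those of CDK2. D cyclin transcripts respond to growth signals, and E cyclin genes are themselves E2F targets. HEK293T cells carry adenoviral early proteins and the large T antigen of simian virus, which bind RB family proteins, so G1 control in this line is not that of a normal kidney cell.

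Libraries differed in depth along with treatment. Totals lay between 41002134 and 45910040 counts in untreated libraries and between 19195920 and 21544749 counts in MGO libraries, so MGO values come from fewer reads, and depth and MGO cannot be told apart by design. The share of counts from mitochondrial genes was 4.204% to 5.42% in untreated and 5.34% to 8.17% in MGO libraries, highest in replicate 1 of each group. The RNA of GLO1 itself stood at 46.2 to 51.0 CPM in untreated and 134.5 to 144.8 CPM in MGO libraries (CPM are counts brought to one library size), with no overlap, and gene-level counts cannot check a small coding lesion. Of the 10 kidney and epithelial markers, 9 were tested, with KRT8 at 525 CPM and EPCAM at 138 CPM in untreated cells. PAX8 was not past the filter. PAX2 fell from 13.2 to 2.78 CPM in MGO. Summed levels of the 6 blood markers lay between 0.582 and 1.33 CPM over all libraries, with HBG1 at 0 in each, and those of the 4 endothelial markers between 0.752 and 1.75 CPM. Fibroblast markers summed to 26.7 to 27.4 CPM in untreated and 11.2 to 13.4 CPM in MGO libraries, most of it COL1A1, and COL1A2 was at 0 in all 6 libraries.

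Promoter sequences were looked up to show what lies before genes of one family that went in opposite directions, CDKN2C (lower in MGO) and CDKN2D (higher), and before CCNE1, whose call did not pass the test. RefSeq windows on GRCh38.p14 hold 250 bases before and 50 after each start. Those of 6 of the 10 genes, matched by symbol, were searched (11 windows). CCND1, CCND2 and CDKN1C had no entry, and CCNE2 was left out of the search and is not shown. The stretches below run 5′ to 3′ on the gene's strand, lie before the start and outside any GENCODE exon, and carry in capitals each GC box (the letters GGGCGG), each box of the letters CCAAT and each core of the cyclic AMP response element (CRE, the letters TGACG), searched on both strands.
CDKN2C, chr1:50960495-50960744, plus strand: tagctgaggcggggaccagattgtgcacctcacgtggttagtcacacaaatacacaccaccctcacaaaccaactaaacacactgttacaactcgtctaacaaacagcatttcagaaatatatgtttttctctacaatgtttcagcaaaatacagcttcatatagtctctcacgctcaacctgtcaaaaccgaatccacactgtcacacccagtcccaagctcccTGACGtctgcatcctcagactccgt
CDKN2D, chr19:10569060-10569229, minus strand: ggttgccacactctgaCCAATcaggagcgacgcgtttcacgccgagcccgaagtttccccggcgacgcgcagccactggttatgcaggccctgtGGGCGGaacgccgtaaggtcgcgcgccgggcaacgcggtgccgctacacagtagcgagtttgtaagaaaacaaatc
CCNE1, chr19:29811741-29811897, plus strand: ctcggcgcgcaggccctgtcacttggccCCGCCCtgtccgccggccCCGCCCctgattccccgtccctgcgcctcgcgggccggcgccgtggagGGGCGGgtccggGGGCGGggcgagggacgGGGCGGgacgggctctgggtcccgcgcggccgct

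The CCNE1 stretch had 83.4% G and C with 5 GC boxes, the CDKN2D stretch 62.4% with 1 GC box and 1 CCAAT box, and the CDKN2C stretch, which lies before the first of 3 RefSeq starts, 45.6% with 1 CRE core. Windows at the later CDKN2C starts differed from it: the next held 6 GC boxes and 1 CRE core, and the last 1 GC box, 1 CCAAT box and 2 CRE cores, so the printed stretch does not stand for the gene. Among all 35116 windows cut at the same distance, a GC box was found in 27.1% for the CCNE1 stretch of 157 bases and in 29.5% for the CDKN2D stretch of 170 bases. A CCAAT box was found in 22.0% at the CDKN2D distance, and a CRE core in 21.2% at the CDKN2C distance of 250 bases. No window of the 6 genes (0 of 11) held one of 5 longer words on either strand. These were TTTCCCGC, bound by E2F factors (found in 1.63% of all windows), its variant TTTGGCGC (0.652%), the full CRE with the letters TGACGTCA (1.85%), the AP-1 site TGANTCA (7.71%) and the ATF4 element TGATGCAA (0.866%). The counts do not separate the starts of a gene.

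Of the 10 genes, 5 were lower in MGO (CCND1, CDK6, CDKN2C, CCND3 and CCND2), 4 were higher (CDKN2D, CDKN1C, CDKN1B and CCNE2) and CCNE1 did not pass the test. All 3 D cyclins fell, 1 of the 2 E cyclins rose, both Cip/Kip inhibitors among the 10 rose, and the pair of INK4 inhibitors split. This count of 9 called genes has to be read against a background of 83.1% of all tested genes called (41.8% higher and 41.2% lower) by edgeR's quasi-likelihood test at an adjusted p under 0.05. The groups did not overlap for the same 9 genes, where this held for 83.5% of all tested genes. CCND1 alone changed at least 2-fold, against 36.5% of all tested genes that were called and changed that much. The median log2 fold change of the 10 genes was -0.08, beside 0.01 over all tested genes. With the untreated libraries thinned to the mean MGO total, again 4 of the 10 were called higher and 5 lower. A change here means a shift against all other transcripts of a library, and levels are TMM-scaled CPM (counts brought to one library size and corrected for library composition), as mean ± SD with n = 3.

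**Figure D1:**
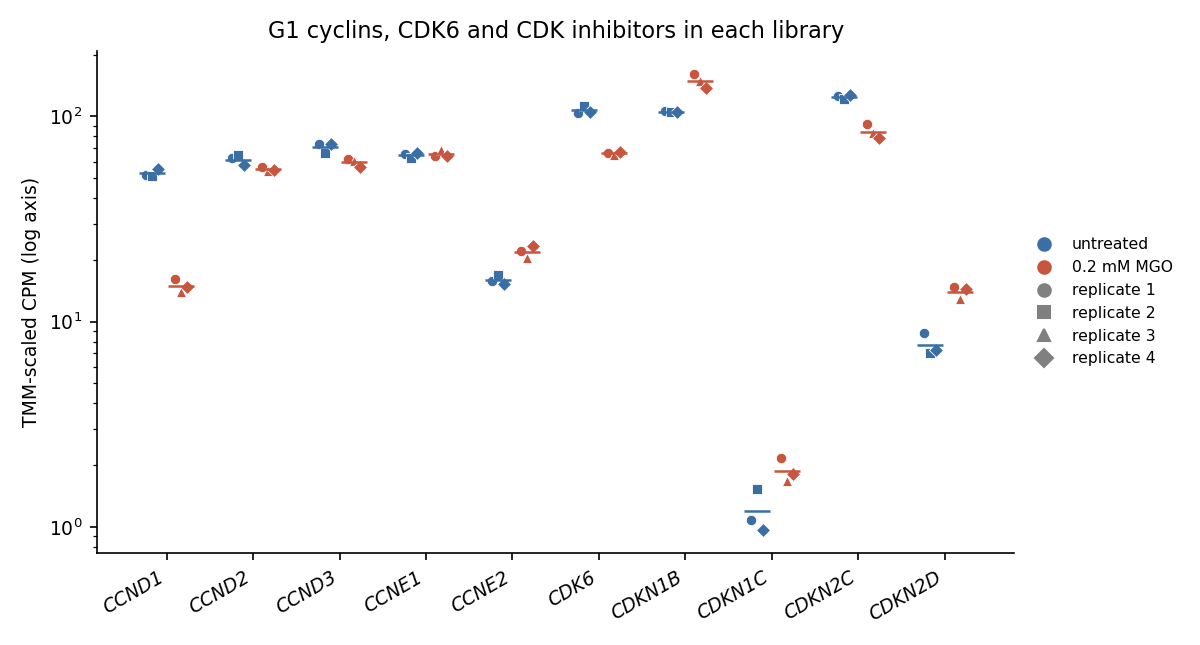
TMM-scaled CPM (log axis) of each gene in 3 untreated (blue) and 3 MGO libraries (red), with marker shape for the replicate number and a bar for the group mean. CCND1 lies at 51.2 to 55.2 CPM in untreated and 14.0 to 16.2 CPM in MGO libraries. On the log axis this is the widest gap of the 10 genes, while the groups overlap for CCNE1.

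CCND1, cyclin D1, which carries mitogen signals to CDK4 and CDK6 (hg38 chromosome 11, 69641087 to 69654474, plus strand), showed the steepest fall of the 10. Untreated libraries 1, 2 and 4 held 51.8, 51.2 and 55.2 CPM, from 2401, 2451 and 2351 counts. MGO libraries 1, 3 and 4 held 16.2, 14.0 and 14.7 CPM, from 293, 261 and 310 counts. Every MGO library was thus far below every untreated one. The fall from 52.7 ± 2.17 to 14.98 ± 1.11 CPM was 3.52-fold (log2 fold change -1.82 with an SE of 0.0598, adjusted p = 7.94e-23). Across 18 processing alternatives it stayed between -1.999 and -1.75 and passed the threshold in each.

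A neighbour of CCND1 went the other way. LTO1, named ORAOV1 in the tables, lies on the opposite strand and shares 497 exon bases with CCND1 in GENCODE release 29. It rose from 9.33 to 43.9 CPM (log2 fold change 2.23). The strand mode of the counting is unknown here, so reads from the shared bases may sit with either gene or with neither. Their part in the fall of CCND1 was not tested.

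CCND2, cyclin D2 (chromosome 12, 4273772 to 4305350, plus strand), moved little. It stood at 62.5, 64.5 and 57.7 CPM in untreated and 56.5, 53.9 and 54.9 CPM in MGO libraries. The lowest untreated library lay just above the highest MGO library. The fall was 1.12-fold (61.6 ± 3.50 to 55.1 ± 1.33 CPM, log2 fold change -0.16 with an SE of 0.0465, adjusted p = 0.00214). The call was lost when each library had to reach 1 CPM (adjusted p = 0.0638) and with the replicate number as a block (adjusted p = 0.145), in a range over alternatives of 9.33e-13 to 1. GENCODE also places a second gene model on the strand of CCND2 that shares 989 of its exon bases, so its counts are uncertain to that extent.

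CCND3, cyclin D3 (chromosome 6, 41934933 to 42050357, minus strand), fell slightly more. It stood at 73.0, 66.6 and 73.7 CPM in untreated libraries and at 62.1, 60.4 and 56.3 CPM in MGO libraries. The groups stayed apart by about the spread inside each of them. The change from 71.1 ± 3.91 to 59.6 ± 2.96 CPM was 1.19-fold (log2 fold change -0.25 with an SE of 0.0469, adjusted p = 1.12e-05).

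Because the D cyclins fell unequally, their mix differed between the groups. Levels of different genes were compared as CPM per kb of merged exons. The summed D cyclin level was 31.8 ± 0.597 CPM per kb in untreated and 21.1 ± 0.789 CPM per kb in MGO libraries. CCND1 made up 33.5%, 34.1% and 35.5% of it across the untreated libraries 1, 2 and 4. Its share across the MGO libraries 1, 3 and 4 was 15.3%, 13.9% and 14.9%. The share of CCND2 was 27.1% ± 1.98 in untreated and 36.5% ± 0.861 in MGO libraries, and that of CCND3 38.5% ± 1.41 and 48.8% ± 1.21 (n = 3 each). CCND3 thus led the family in every library, and CCND1 was the least abundant D cyclin in each MGO library. These shares depend on the exon length used, most of all for CCND3, whose 23 GENCODE transcripts merge to 5802 bases where the longest single one has 2394.

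CCNE1, cyclin E1, the CDK2 partner that drives entry into S phase (chromosome 19, 29811898 to 29824308, plus strand), did not pass the test. It stood at 65.5, 62.6 and 66.3 CPM in untreated and at 63.9, 68.3 and 63.8 CPM in MGO libraries. The groups overlapped. The log2 fold change was 0.01 with a 95% interval of -0.08 to 0.10 (adjusted p = 0.819), which limits a difference but does not show that there was none. With no filter on low counts CCNE1 was called lower (log2 fold change -0.17, adjusted p = 0.000476). That setting lowered the log2 fold changes of the genes tested in both fits by a median of 0.18, through the scaling factors.

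CCNE2, cyclin E2, the other CDK2 partner, was higher in MGO. It stood at 15.8, 16.9 and 15.2 CPM in untreated and 22.1, 20.4 and 23.3 CPM in MGO libraries, with every MGO library above every untreated one. The rise from 15.98 ± 0.839 to 21.9 ± 1.47 CPM was 1.37-fold (log2 fold change 0.46 with an SE of 0.0655, adjusted p = 1.72e-07). CCNE2 shares 1629 exon bases with INTS8, a subunit gene of the Integrator complex on the opposite strand, which went from 46.6 to 41.7 CPM. Per kb, CCNE1 supplied 87.5% ± 0.903 of the summed E cyclin level in untreated and 83.7% ± 1.41 in MGO libraries, and the sum itself was 29.1 ± 0.566 and 30.6 ± 0.716 CPM per kb.

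**Figure D2:**
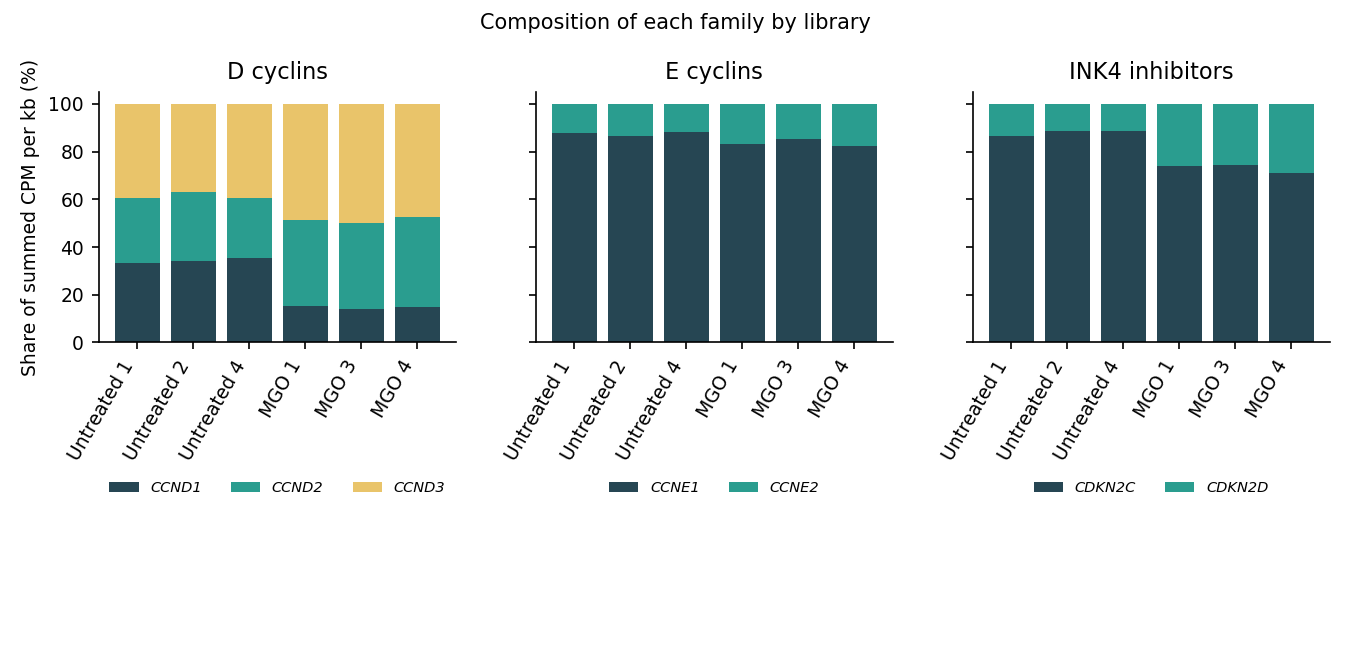
Share of each gene in the summed CPM per kb of its family (percent, stacked to 100), per library. CCND1 takes 33.5% to 35.5% of the D cyclins in untreated and 13.9% to 15.3% in MGO libraries, and CDKN2D takes 11.2% to 13.3% and 25.5% to 28.9% of the 2 INK4 genes shown.

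CDK6, a kinase partner of the D cyclins (chromosome 7, 92604921 to 92836594, minus strand), fell along with them. Its values were 104, 112 and 105 CPM in untreated and 66.4, 65.0 and 66.8 CPM in MGO libraries. MGO libraries were close together and all below the untreated ones. The fall from 107 ± 4.68 to 66.0 ± 0.947 CPM was 1.62-fold (log2 fold change -0.70 with an SE of 0.0410, adjusted p = 2.86e-16), and the call held in 18 of 18 alternatives. CDK4, the other kinase of the D cyclins, fell less, from 173 ± 5.33 to 150 ± 6.44 CPM (log2 fold change -0.21). Per kb CDK6 was the minor one of the pair, with 13.8% ± 0.870 of their sum in untreated and 10.3% ± 0.494 in MGO libraries. CDK2, the kinase of the E cyclins, rose from 81.7 ± 2.36 to 122 ± 2.54 CPM (log2 fold change 0.58).

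CDKN1B, the inhibitor p27 that holds cyclin E-CDK2 inactive in resting cells (chromosome 12, 12715058 to 12722371, plus strand), rose. It stood at 106, 105 and 105 CPM in untreated libraries 1, 2 and 4 and at 162, 149 and 138 CPM in MGO libraries 1, 3 and 4. The untreated libraries differed by under 2 CPM, while the MGO libraries were spread over more than 20 CPM. The rise from 105 ± 0.608 to 149 ± 11.97 CPM was 1.42-fold (log2 fold change 0.51 with an SE of 0.0445, adjusted p = 2.35e-11). Within MGO its order was that of the mitochondrial shares, 8.17%, 6.00% and 5.34%. CDKN2C and CCND3 also had this order. Without both libraries numbered 1, which had the highest such shares, the log2 fold change was 0.44 for CDKN1B, -0.64 for CDKN2C and -0.28 for CCND3, and each kept its call.

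CDKN1C, the inhibitor p57, an imprinted gene expressed mainly from the maternal copy (chromosome 11, 2883213 to 2885773, minus strand), was scarce in every library. Untreated libraries 1, 2 and 4 held 50, 73 and 41 counts of it, and MGO libraries 1, 3 and 4 held 39, 31 and 38. After scaling this gave 1.08, 1.53 and 0.963 CPM in untreated and 2.16, 1.66 and 1.81 CPM in MGO libraries, so the highest untreated library lay near the lowest MGO library. The rise was 1.56-fold (1.19 ± 0.297 to 1.87 ± 0.253 CPM, log2 fold change 0.64, 95% interval 0.21 to 1.07, adjusted p = 0.00600). Raw counts were lower in MGO libraries, which held fewer reads in all. The call was lost without both libraries numbered 1 (adjusted p = 0.0909) and with no filter on low counts (adjusted p = 0.0534), in a range over alternatives of 0.00120 to 0.318.

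CDKN1C lies in the KCNQ1 imprinted domain, where the antisense RNA KCNQ1OT1 silences genes on the paternal copy. KCNQ1OT1 (chromosome 11, 2608328 to 2699994, minus strand) stood at 0.992, 1.07 and 1.08 CPM in untreated and 54.7, 44.1 and 39.4 CPM in MGO libraries. Of 13 listed genes of the domain around CDKN1C, 10 were tested, 5 of them rose, 2 fell and 3 did not pass. Over all tested genes, 41.8% were called higher and 41.2% lower. PHLDA2, an imprinted growth regulator of placenta, rose from 2.83 to 8.64 CPM, TSSC4 from 26.1 to 46.3 CPM and CARS, a cysteinyl-tRNA synthetase, from 32.4 to 51.4 CPM. NAP1L4, a histone chaperone, fell from 134 to 103 CPM and CD81, a tetraspanin, from 269 to 220 CPM. KCNQ1, whose gene KCNQ1OT1 overlaps, did not pass, with means of 2.15 CPM without and 2.03 CPM with MGO (adjusted p = 0.610). The counts do not tell the parental copies apart.

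CDKN2C, the INK4 inhibitor p18 (chromosome 1, 50960745 to 50974633, plus strand), fell. It stood at 126, 121 and 127 CPM in untreated and 91.8, 82.6 and 78.5 CPM in MGO libraries, with no overlap. The change from 125 ± 3.31 to 84.3 ± 6.80 CPM was 1.48-fold (log2 fold change -0.57 with an SE of 0.0454, adjusted p = 2.99e-12).

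CDKN2D, the INK4 inhibitor p19 (chromosome 19, 10566462 to 10569059, minus strand), showed the largest rise of the 10 genes. It stood at 8.80, 7.00 and 7.26 CPM in untreated libraries 1, 2 and 4 and at 14.7, 12.8 and 14.4 CPM in MGO libraries 1, 3 and 4. Every MGO library was well above the highest untreated one. The rise from 7.68 ± 0.972 to 14.0 ± 1.01 CPM was 1.82-fold (log2 fold change 0.86 with an SE of 0.0889, adjusted p = 2.51e-10). Per kb, CDKN2D went from 11.9% ± 1.21 to 26.8% ± 1.79 of the summed level of the pair, which itself was 42.7 ± 1.42 CPM per kb in untreated and 34.7 ± 2.36 CPM per kb in MGO libraries.

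**Figure D3:**
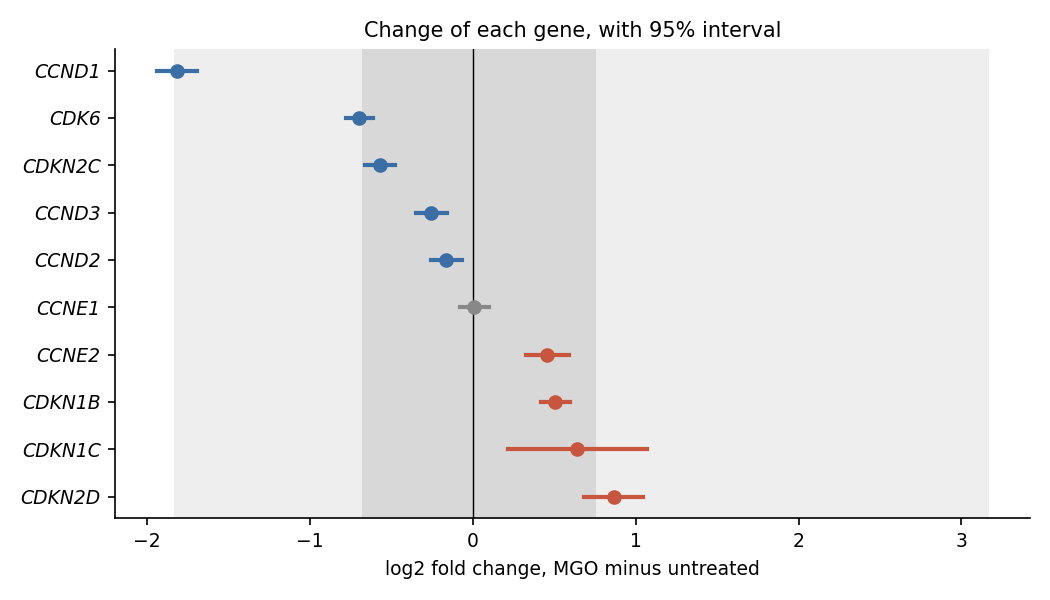
Log2 fold change (MGO minus untreated) of each gene with its 95% interval, blue for lower, red for higher and grey for not called, over bands that hold the middle 50% (dark) and 90% (light) of all 17415 tested genes. CCND1 lies near the lower edge of the light band, at -1.82 against -1.83, CDK6 and CDKN2D lie just outside the dark band, and the other 7 lie inside it.

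Seen per kb, the order of the 10 transcripts also differed between the groups. In untreated libraries CDKN2C (37.6 CPM per kb) and CDKN1B (37.3) led and their ranges overlapped, followed by CCNE1 (25.4), CCND3 (12.3), CCND1 (10.9), CDK6 (8.73), CCND2 (8.61), CDKN2D (5.11), CCNE2 (3.64) and CDKN1C (0.480). CDK6 and CCND2 were the other neighbours whose ranges overlapped. In MGO libraries CDKN1B led alone at 53.1 CPM per kb, ahead of CCNE1 (25.6) and CDKN2C (25.4), whose ranges overlapped. CCND3 (10.3) and CDKN2D (9.31) came next and overlapped, then CCND2 (7.70), CDK6 (5.39) and CCNE2 (4.99), the latter pair overlapping. CCND1 (3.10) had moved from the fifth place to the ninth, above CDKN1C (0.757). Places and overlaps between genes depend on the merged exon length used, which for CCND3 is 5802 bases where its longest transcript has 2394.

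Other inhibitors and kinases of the pathway mostly rose, from lists described by counts. The count of each list, here and below, has to be read against 41.8% of all tested genes called higher and 41.2% called lower. CDKN1A, the p53-induced inhibitor p21, rose from 129 ± 2.67 to 537 ± 11.9 CPM (log2 fold change 2.06), and per kb it went from 42.3 to 176 CPM, from near the level of CDKN1B to above it. CDKN2A rose from 292 ± 2.96 to 355 ± 29.5 CPM (log2 fold change 0.28), and CDKN2B from 68.1 ± 1.25 to 76.0 ± 4.56 CPM (0.16). The CDKN2B direction turned with no filter on low counts, and its call was lost with library size as the only scaling (adjusted p = 0.302), without MGO replicate 3 (0.0586) or MGO replicate 4 (0.0662), and with the replicate number as a block (0.0907). These INK4 neighbours share part of a locus, and the transcripts of CDKN2A for its different proteins are counted together. Of 7 tested G1 kinases and activators 6 rose and 1, CDK4, fell, with a median log2 fold change of 0.59. CDC25A, the phosphatase that activates CDK2, went from 106 to 297 CPM, CDC37, a chaperone partner for kinases such as CDK4, from 191 to 377 CPM, and CDK7, the kinase that activates other CDKs, from 26.7 to 54.8 CPM.

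RB family and E2F genes went both ways. Of 13 tested, 7 rose, 5 fell and E2F1 did not pass (94.9 and 92.1 CPM, adjusted p = 0.325, called lower at 0.00412 with library size alone and at 1.70e-06 with no filter on low counts), with a median log2 fold change of 0.22. E2F8, a repressor of the family, rose from 12.4 to 63.4 CPM, E2F2 from 47.3 to 95.4 CPM and E2F3 from 101 to 168 CPM. TFDP1, the main partner of E2F proteins on DNA, fell from 248 to 107 CPM, the pocket protein gene RBL2 from 73.3 to 29.7 CPM and E2F5 from 18.1 to 5.15 CPM. Among 20 E2F targets of the G1/S step there were 16 rises, 2 falls and 2 genes not called, at a median log2 fold change of 0.40, although CDC45, MCM4 and TK1 turned direction with no filter on low counts. The MCM4 call was also lost without untreated replicate 1 (adjusted p = 0.0908), MGO replicate 3 (0.103) or MGO replicate 4 (0.293), and the TK1 call without MGO replicate 4 (0.117). The replication licensing gene ORC1 went from 37.5 to 92.4 CPM and CDT1 from 167 to 683 CPM, and the uracil glycosylase UNG from 157 to 292 CPM. The S phase cyclin CCNA2 fell from 159 to 143 CPM.

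Most tested cyclins of later phases fell, and most cyclins of the transcription kinases rose. Of 6 S and M phase cyclins 5 fell and CCNA1 did not pass. Their median log2 fold change was -0.20. CCNF went from 62.5 to 44.7 CPM and CCNB1 from 249 to 216 CPM. CCNB3, with 6 to 59 counts a library, had the steepest fall of these cyclins, from 1.25 ± 0.115 to 0.386 ± 0.106 CPM (log2 fold change -1.71). Of 7 cyclins that act with kinases of the transcription machinery 6 rose and CCNC did not pass. Their median log2 fold change was 1.13. CCNT2 rose from 25.2 to 88.6 CPM, CCNT1 from 75.7 to 178 CPM and CCNL2 from 34.1 to 74.6 CPM.

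Genes that control the stability of G1 regulators were divided. Of 13 tested, 4 rose, 6 fell and 3 did not pass. Their median log2 fold change was -0.08. Among the 4 that rose, SKP1 (log2 fold change 0.085, adjusted p = 0.0483) kept its call in only 6 of 18 alternatives and turned direction in 2. SKP2, the ubiquitin ligase subunit that marks CDKN1B protein for destruction, fell from 113 ± 2.30 to 42.4 ± 1.24 CPM (log2 fold change -1.42). FBXO31, an F-box protein that targets cyclin D1, fell from 35.6 to 10.8 CPM, and CUL3, a cullin scaffold, from 110 to 62.2 CPM. AMBRA1, a ligase adaptor for D cyclins, rose from 48.9 to 98.5 CPM, FBXW7, which marks cyclin E, from 11.7 to 20.7 CPM, and RNF123, a ligase for CDKN1B, from 38.4 to 44.6 CPM, a call lost with no filter on low counts (adjusted p = 0.592). Protein levels were not measured here.

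Regulators known to act on CDKN1B or CDKN2C transcription also differed. FOXO factors induce CDKN1B in many cells. FOXO3 rose from 128 to 161 CPM, FOXO1 fell from 29.3 to 18.6 CPM and FOXO6 from 12.5 to 3.21 CPM, while FOXO4 did not pass (28.1 and 28.4 CPM). The menin-MLL complex, which places H3K4 methylation, maintains CDKN1B and CDKN2C in endocrine cells. Of 8 listed genes of it, 3 rose, 4 fell and ASH2L did not pass. KMT2A (57.8 to 152 CPM), RBBP5 (54.3 to 106 CPM) and KMT2B (158 to 228 CPM) rose, and MEN1 (69.1 to 37.3 CPM), PSIP1 (194 to 124 CPM) and DPY30 (39.3 to 24.2 CPM) fell.

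**Figure D4:**
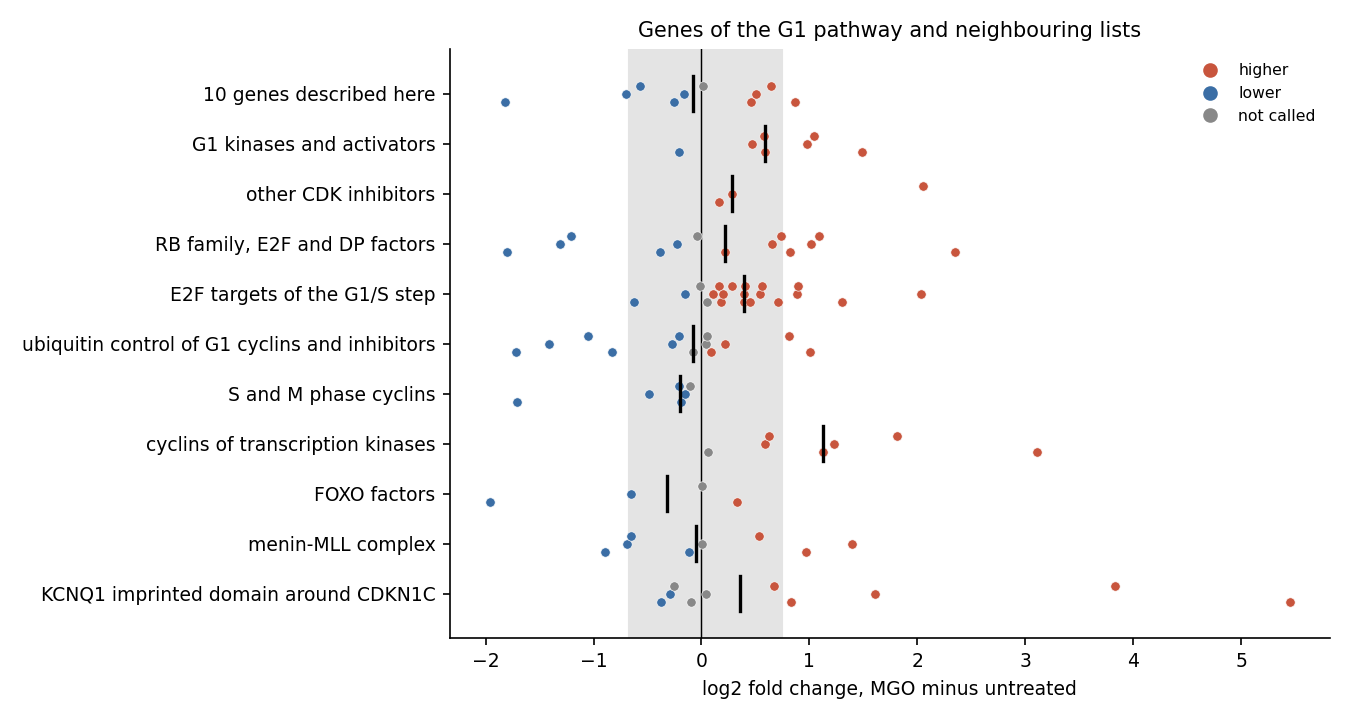
Log2 fold change (MGO minus untreated) of every tested gene of each list, red for higher, blue for lower and grey for not called, with a black bar at the list's median and a band for the middle 50% of all tested genes. The 10 genes described here have a median of -0.08, the cyclins of transcription kinases 1.13 and the S and M phase cyclins -0.20.

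The directions held across most alternatives. CCND1, CDK6 and CDKN2D kept their call in 18 of 18. When a change had to exceed a fold of 1.5, CDKN2D was called higher and CCND1 and CDK6 lower, and the other 7 genes did not pass.

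**Figure D5:**
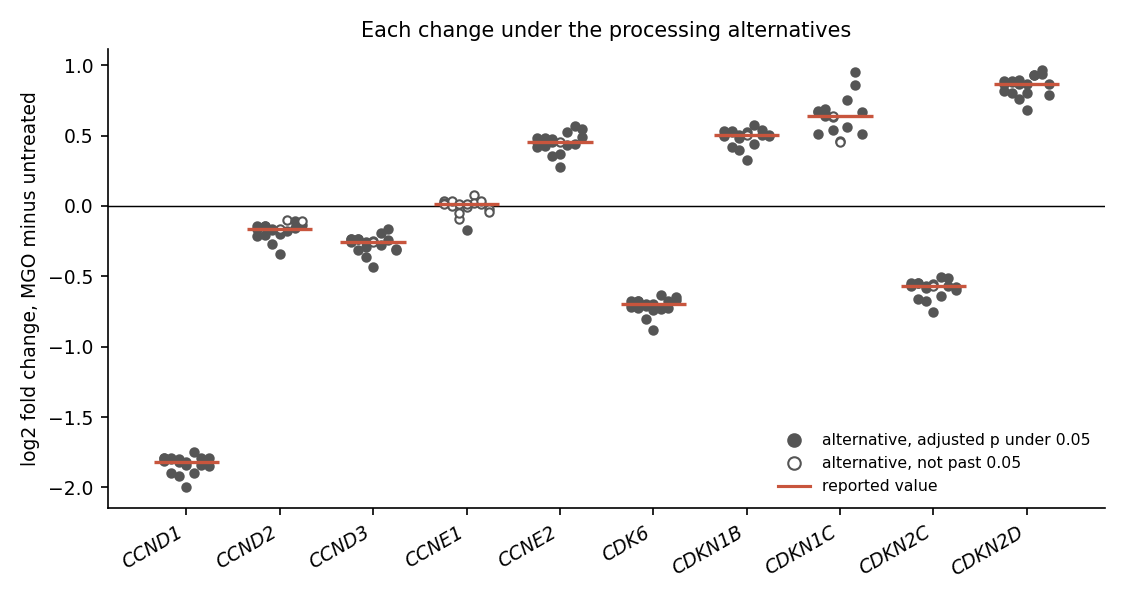
Log2 fold change (MGO minus untreated) of each gene under up to 18 processing alternatives (circles, filled where the adjusted p was under 0.05) beside the reported value (red bar). CCNE1 is spread around 0 between -0.17 and 0.08, and for the other 9 genes all circles lie on the side of the reported value.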

How the data were processed

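Poly(A) RNA libraries were read as paired ends, per the labels' protocols. Each deposited file lists the raw counts of 1 library by gene symbol, which are whole numbers without normalization by the authors. Trim Galore, STAR (2.4), Picard and HTSeq (0.9.1) are listed for hg38 per the submitters' processing notes, without their settings. The annotation and strand mode are not given in the sources used. Counts were tested with edgeR 4.0.16 in R 4.3.3 (filterByExpr, TMM, robust glmQLFit, two-sided glmQLFTest, no covariate, Benjamini-Hochberg over 17415 genes at 0.05). The SE is the log2 fold change divided by the square root of F. Alternatives changed scaling, filter, libraries, depth, block, test (limma 3.58.1 voom, DESeq2 1.42.0) and threshold. The pipeline was tested on simulated counts, where it recovered 32 of 50 genes at a fold of 1.25 and 50 of 50 at a fold of 4, with 5 false calls. Few genes were changed there, whereas 83.1% were called in the data, so scaling under such broad change was not tested. Per-length levels divide CPM by merged exons of GENCODE release 29, on the assembly of hg38. The genes and lists were chosen with earlier results of these data known, so their choice supports nothing. Named from each list, besides the 10 genes, CDK2, CDK4, CDKN1A and KCNQ1OT1, were up to 3 called genes per direction by the smallest p. Genes named to complete a count, or because their direction turned, were chosen after their values were seen. PCR reads are not independent molecules. Some genes of the lists are counted but not reported by name here.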

Additional observations from a re-analysis of the deposited data

How the results depend on the processing

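Against a fold of 1.5, 4363 genes were higher and 3942 lower over all tested genes, and 1 of the 10 genes was higher and 2 lower. Under the other 17 alternatives these counts stayed within 1.5 times the reported ones. With no filter on low counts 13 of the 99 genes turned sign, as log2 fold changes of genes tested in both fits moved by a median of -0.18, and 11 of them were called in at least 1 of these fits. These were CCNE1 (-0.17), CDKN2B (-0.022), CDC45 (-0.0032), MCM4 (-0.076), TK1 (-0.022), TYMS (-0.13), SKP1 (-0.098), CKS1B (-0.14), CCNC (-0.12), FOXO4 (-0.17) and ASH2L (-0.18). Library size as the only scaling moved all genes by a median of -0.11 and turned the sign of 9 genes, SKP1 (-0.021), which was called in the reported fit, and 8 that neither fit called, CCNE1 (-0.09) among them. Among the 89 other list genes, calls were lost in 65 and gained in 17 gene and setting pairs that kept their sign. Pairs whose sign turned are not in these counts. With the longest transcript as length the shares of CCND1, CCND2 and CCND3 were 23.8%, 18.5% and 57.7% in untreated and 9.42%, 23.1% and 67.5% in MGO cells. As shares of raw counts, CCND1 and CCND2 had 28.4% and 33.2% in untreated and 11.5% and 42.5% in MGO cells, CCND3 had 45.97% in MGO cells, and CCNE1 and CCNE2 had 80.2% and 19.8% in untreated and 74.8% and 25.2% in MGO cells.

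Replicate numbers 1 and 4 occur in both groups, but the labels do not say that they mark a shared batch, so the numbers were not taken as pairs. Deviations of same-numbered libraries correlated at 0.020 and -0.0078, which with 3 libraries a group does not decide whether a batch was shared. Number 2 occurs only in the untreated group and number 3 only in the MGO group. A fit with the replicate number as a block thus drew the difference from the libraries numbered 1 and 4 alone. In that fit 6778 genes were higher and 6673 lower, 4 of the 10 genes were higher and 4 lower, and CCND2 was the gene no longer called. Depth limits CDKN1C most, at 31 to 73 counts a library.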
